A study of Mus musculus with 16 samples.

Results

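The 10 genes *Plec*, *Dst*, *Macf1*, *Syne1*, *Syne2*, *Sptan1*, *Sptbn1*, *Ahnak*, *Flna* and *Utrn* encode giant scaffold proteins of the cytoskeleton, and they were taken by symbol from the 56748 genes of the count table of murine Sertoli-like TM4 cells. They were selected for their very long transcripts and on measured values of these same counts, namely their lower counts with the *gdf6Y* plasmid and the relation of change to gene length. All values on this contrast, and on the comparisons with del9 that share its samples, are therefore a description of the members. Their calls are no independent evidence. All 10 symbols matched a single gene, and all 10 had counts in every sample.

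TM4 is an established line of mouse testis cells. The cells carried 1 of 3 plasmids, transfected 24 h after seeding at 2.5 µg per well, and RNA was isolated 24 h later. The EV group (n = 6) carried the empty vector pcDNA3.1-HA, the *gdf6Y* group (n = 5) a plasmid for the Y-chromosomal copy of *gdf6*, a BMP family ligand of the killifish *Nothobranchius furzeri*, and the del9 group (n = 5) the same plasmid with the mutant variant *gdf6Ydel9*. All 3 groups shared the cell line, medium, transfection reagent and plasmid amount. The killifish gene is not a row of the mouse table, so expression of the plasmids was not measured here. Per the study's notes, replicate 6 of *gdf6Y* and replicate 6 of del9 were left out by the authors for lower quality. The labels do not say whether replicates were separate cultures grown at different times, so p-values measure only the spread between these samples, which may be technical.

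Plakins (*Plec*, *Dst*, *Macf1*) link intermediate filaments, microtubules and actin to each other and to cell junctions. Nesprins (*Syne1*, *Syne2*) sit in the outer nuclear membrane and connect the nucleus to the cytoskeleton through SUN proteins, and spectrins (*Sptan1*, *Sptbn1*) form the mesh under the plasma membrane. Filamin A (*Flna*) crosslinks actin, utrophin (*Utrn*) joins actin to the dystroglycan complex, and *Ahnak* binds annexin 2 and S100A10 at the membrane. In Sertoli cells such proteins belong to the cytoskeletal scaffold that holds the cell shape and the junctions with germ cells.

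The sequencing depth was similar in the 3 groups, with 21486850 to 26444903 counts per sample. Counts of 35 replicate pairs all differed by more than sampling noise, with a chi-square per degree of freedom of 1.5 to 14, so no library looked like a second copy of another. Of 9 Sertoli cell markers, 5 averaged above 10 normalised counts in each group, led by *Gata4* and *Kitl*, *Amh* averaged 5.49 to 6.93, and *Wt1* was at 0 in all samples, while *Fshr* and *Cldn11* did not exceed 1 count. The label was thus met only in part. The summed 9 Sertoli markers lay at 1680 to 1770 normalised counts with EV, 1500 to 1620 with *gdf6Y* and 1570 to 1730 with del9. This sum was lower in every *gdf6Y* sample than in every EV sample, and the scaffold gene means were lower with *gdf6Y* too. It was mostly *Gata4* (mean 831 with EV, 722 with *gdf6Y*) and *Kitl* (707 and 687). *Dhh*, *Inha* and *Sox9* also averaged lower with *gdf6Y*, while *Amh* averaged higher (5.49 and 6.43). Of the markers of other testis cells, *Acta2* of peritubular myoid cells was high, between 3985 and 4702 counts with EV. The summed 4 markers of that list lay at 4480 to 4710 normalised counts with EV, 4710 to 5060 with *gdf6Y* and 4570 to 4840 with del9. *Acta2* made up nearly all of that sum, since *Cnn1* averaged 32, *Des* 44.1 and *Myh11* 0.678 normalised counts with EV. The 2 germ cell, 2 endothelial and 3 macrophage markers were each at or below 10 counts in every sample, and of 4 Leydig cell markers 1, *Star*, exceeded 10 counts. The part of these lists in the results was not tested.

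A pair of libraries stood apart from their groups in the scaffold genes, *gdf6Y* replicate 1 and del9 replicate 2. For *gdf6Y* replicate 1 the distance was not limited to these genes. Over 10075 genes, its chi-square values against the other *gdf6Y* samples were 9.19 to 14, and every other replicate pair lay at 7.73 or below. For del9 replicate 2 they were 4.52 to 7.67 against the other del9 samples, and EV replicates 1 and 5 reached 7.73. Relative to the EV mean, the mean log2 ratio of the 10 genes was 0.09 in *gdf6Y* replicate 1 and -0.23, -0.32, -0.34 and -0.40 in the other *gdf6Y* samples. It was 0.09 in del9 replicate 2 and -0.22, -0.13, -0.19 and -0.11 in the other del9 samples, and it ranged from -0.11 to 0.10 with EV. *Malat1*, a nuclear non-coding RNA, had 6008 normalised counts in *gdf6Y* replicate 1 against 3652 to 3835 in the other *gdf6Y* samples, 4806 to 6178 with EV and 3695 to 4330 with del9. *Neat1*, also a nuclear non-coding RNA, did not set that library apart as high, with 2116 in *gdf6Y* replicate 1 and 2147 to 2600 in the others, and 1597 in del9 replicate 2 was the lowest del9 value. The share of mitochondrial counts was 1.17% in *gdf6Y* replicate 1 and 1.71% to 2.03% in the other 4, but replicate 1 was also lowest with EV (1.28%, others 1.5% to 1.7%) and with del9 (1.32%, others 1.37% to 1.77%), and del9 replicate 2 was at 1.41%. The part of these differences in the results was not tested, and results are given with and without this pair of libraries, which was chosen after the values were seen. Each library of the pair could be left out only where its group was compared.

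The members are long even for the genome. Merged exons of the GENCODE vM39 annotation (GRCm39) summed to 45141 bp for *Dst* (chr1:33946918-34347742), 41349 bp for *Syne1* (chr10:4970266-5501482), 33031 bp for *Macf1* (chr4:123243384-123581331) and 27094 bp for *Syne2* (chr12:75864908-76157700). The shortest were *Flna* with 11208 bp (chrX:73265347-73293456) and *Sptan1* with 13678 bp (chr2:29855328-29921463), and the median of all 56017 annotated genes was 1557 bp. *Dst* ranked 6 and *Flna* ranked 2477 among these genes. All 10 are protein coding, and their longest transcripts have from 5 exons in *Ahnak*, which holds most of its coding sequence in a giant exon, to 146 exons in *Syne1*.

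RefSeq promoter windows of 300 bases (GRCm38.p6, 250 before and 50 after a start site) were given for 9 of the 10 members, 13 windows in all, and *Plec* matched none. The 250 bases before the start are shown for *Flna*, the member with the highest level per length, and for *Syne2*, the lowest of those with a single window, since the genes moved together across samples. The capitals mark the GC box, GGGCGG or its reverse complement CCGCCC. *Flna* lies on the minus strand (chrX:74246535-74246784) and *Syne2* on the plus strand (chr12:75818068-75818317), and both are written 5′ to 3′ along the gene.
Flna: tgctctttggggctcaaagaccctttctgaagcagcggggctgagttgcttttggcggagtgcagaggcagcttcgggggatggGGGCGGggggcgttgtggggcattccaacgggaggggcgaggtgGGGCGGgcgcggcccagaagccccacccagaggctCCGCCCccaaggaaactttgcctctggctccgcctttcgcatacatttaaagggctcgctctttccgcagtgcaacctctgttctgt
Syne2: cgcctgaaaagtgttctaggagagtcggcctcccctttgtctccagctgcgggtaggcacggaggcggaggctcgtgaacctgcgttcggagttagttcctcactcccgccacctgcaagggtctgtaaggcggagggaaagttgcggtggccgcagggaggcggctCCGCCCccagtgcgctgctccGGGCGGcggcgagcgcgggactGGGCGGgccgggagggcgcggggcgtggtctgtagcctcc
Each of these stretches held 3 GC boxes and was rich in G and C, 63.6% in *Flna* and 70.0% in *Syne2*. The other members with a single window ran from 0 boxes in *Macf1* (38.4%) and *Utrn* (46.8%) to 5 in *Sptan1* (73.6%). Over the full windows, G and C made up 40.3% to 73.3% in the members, and the median of all windows was 52.7%. The GC box, on either strand and counted over the full window, was found in 7 of 13 member windows (53.8%) and in 35.7% of all 32851 windows. The CArG box of serum response factor, searched as CC, then any 6 of A or T, then GG, was in 0 of 13 member windows and in 1.63% of all windows. CAGACA, the Smad box, was in 3 of 13 (23.1%) against 21% of all, in *Syne1* and *Utrn*. These matches describe letters in a window and say nothing of a factor.

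Levels were compared between genes as CPM per kb of merged exon, that is counts relative to library size and to gene length. With EV, *Flna* was highest at 129 ± 4.55 (SD, n = 6), above 98.4% of the 12549 genes ranked. *Plec* followed at 34.6 ± 1.75 and *Ahnak* at 32.2 ± 1.85, and the samples of this pair overlapped. *Sptbn1* at 26.6 ± 0.880 and *Sptan1* at 25.3 ± 0.902, which pair in the spectrin tetramer, overlapped as well. *Macf1* stood alone at 10.8 ± 0.539, and *Utrn* at 7.10 ± 0.353 overlapped *Dst* at 6.09 ± 0.478. The nesprins were lowest, *Syne2* at 2.13 ± 0.171 and *Syne1* at 2.11 ± 0.188, and these neighbours did not differ beyond their spread. With the longest transcript as the length, *Sptbn1* moved from rank 4 to rank 2 and *Plec* from rank 2 to rank 5. Together the 10 genes took 0.458% ± 0.0187 of all counts with EV, 0.400% ± 0.0421 with *gdf6Y* and 0.427% ± 0.0338 with del9 (SD, n = 6, 5 and 5).

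**Figure D1:**
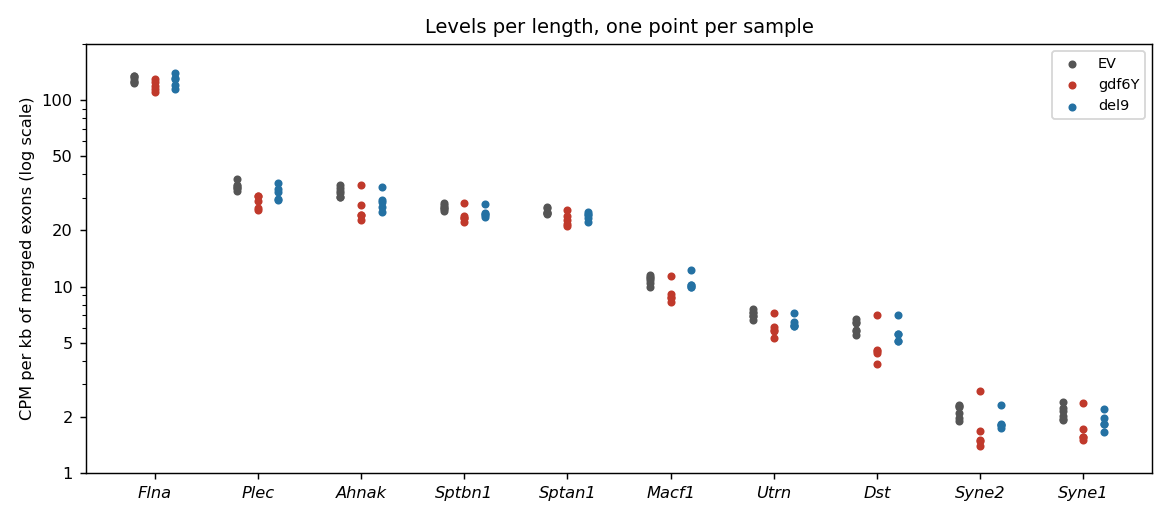
Level of each scaffold gene in CPM per kb of merged exons (log axis), 1 point per sample, with EV in grey, *gdf6Y* in red and del9 in blue. *Flna* lies alone at the top with a mean of 129 with EV, and the nesprins lie lowest at 2.13 and 2.11.

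The first comparison, *gdf6Y* against EV, asks which genes change with the intact ligand. All 10 scaffold genes had a lower mean with *gdf6Y*, by 0.11 (*Flna*) to 0.32 (*Dst*) on the log2 scale, with a median log2 fold change of -0.25 against 0.00 over the 12587 genes that averaged 10 counts or more. Normalised counts are given for each gene first. In bulk RNA, fewer cells of a type and less RNA per cell cannot be told apart.

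*Plec* encodes plectin, the linker of intermediate filaments. It ranged from 14550 to 16824 normalised counts with EV (median 15305) and was 13583, 13602, 12867, 11422 and 11803 in *gdf6Y* replicates 1 to 5. It was the only member whose *gdf6Y* samples all lay below all EV samples, a pattern seen in 1 of 10 members and 1.35% of all genes tested. The log2 fold change was -0.29 ± 0.04 (SE, n = 5 and 6). *Dst* (dystonin) ranged from 6081 to 7441 with EV (median 6775), while the *gdf6Y* samples had 7779, 5084, 4894, 4994 and 4257. Replicate 1 was above every EV sample and the other 4 were below all of them, and the log2 fold change was -0.32 ± 0.10. *Macf1*, the microtubule-actin crosslinker, had 8134 to 9333 with EV (median 8921) and 9270, 7449, 7056, 7161 and 6759 with *gdf6Y*. Again only replicate 1 lay within the EV range, and the log2 fold change was -0.23 ± 0.06.

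*Syne1* had 1959 to 2448 normalised counts with EV (median 2127) and 2429, 1756, 1589, 1589 and 1540 with *gdf6Y*. *Syne2* had 1272 to 1538 with EV (median 1447) and 1840, 1119, 994, 1010 and 934 with *gdf6Y*. For both genes 4 *gdf6Y* samples lay below all EV samples, and replicate 1 lay at the top of the EV range for *Syne1* and above it for *Syne2*. The log2 fold changes were -0.27 ± 0.09 and -0.27 ± 0.12.

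The spectrins changed less. *Sptan1*, alpha-II spectrin, had 8231 to 8981 with EV (median 8407) and 8687, 8058, 7688, 7154 and 7309 with *gdf6Y*, a log2 fold change of -0.13 ± 0.04. *Sptbn1*, beta-II spectrin, had 10979 to 12049 with EV (median 11446) and 12125, 10299, 10001, 10022 and 9613 with *gdf6Y*, a log2 fold change of -0.14 ± 0.04. In both genes replicates 2 to 5 were below all EV samples and replicate 1 was not.

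*Ahnak* had 17914 to 20622 with EV (median 18980) and 20742, 16085, 14249, 13475 and 14332 with *gdf6Y*. Its log2 fold change was -0.27 ± 0.08, and replicate 1 was above all EV samples. *Utrn* had 2941 to 3388 with EV (median 3161) and 3195, 2596, 2560, 2716 and 2368 with *gdf6Y*, a log2 fold change of -0.23 ± 0.05. *Flna* had the smallest difference, with 34362 to 37150 with EV (median 35514), 36034, 34414, 32973, 31448 and 30642 with *gdf6Y* and a log2 fold change of -0.11 ± 0.03. Here replicate 2 also overlapped the EV samples, so 3 of 5 were below all of them.

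**Figure D2:**
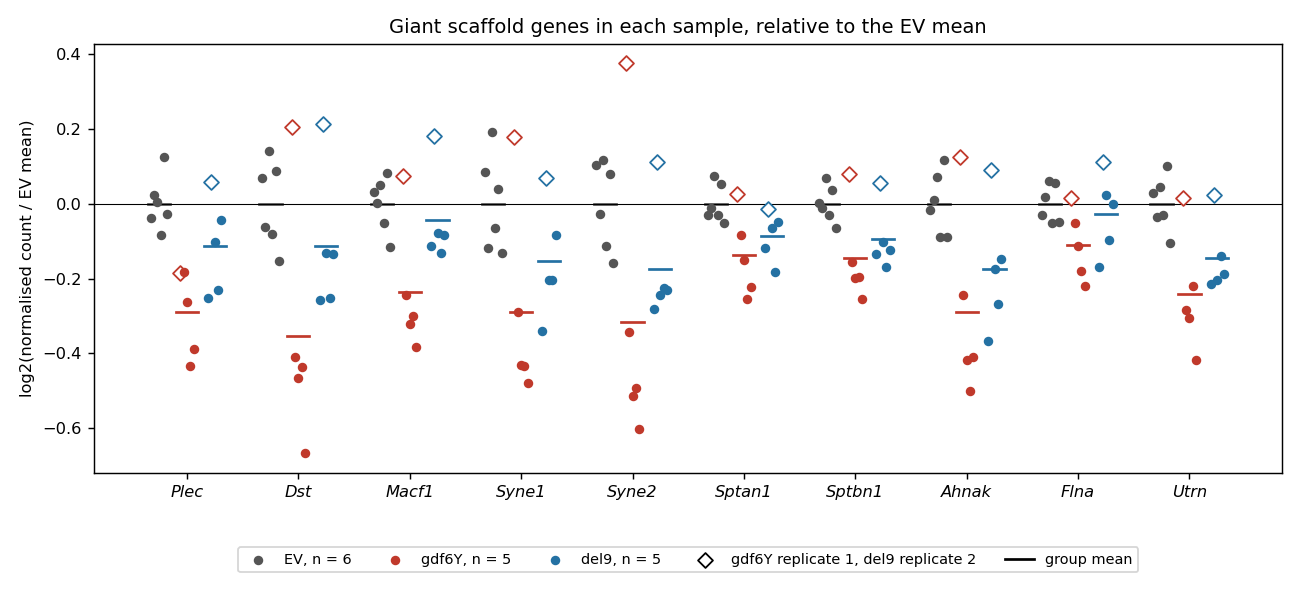
Log2 ratio of the normalised count to the EV mean for each gene, 1 point per sample, with horizontal bars at the group means and open diamonds for *gdf6Y* replicate 1 and del9 replicate 2. For all genes but *Plec*, *gdf6Y* replicate 1 lay within or above the EV range, and the other 4 *gdf6Y* samples lay below it except for *Flna* in replicate 2.

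How many of these differences passed a test depended on how the spread was estimated. With edgeR on every gene that had 1 count or more in a library compared (the unfiltered fit), 10 of 10 members were called lower at an adjusted p below 0.05, beside 3.38% of all 26316 genes. In that fit the spread of each gene was taken almost wholly from the average of genes of similar count, with a prior weight of 738 degrees of freedom (and without limit in the other 2 comparisons), so the distance of replicate 1 from its group hardly entered. With edgeR's filterByExpr filter on low counts (the filtered fit) the prior weight was 9.57, and 6 of 10 were called beside 5.71% of 12689 genes, namely *Plec*, *Macf1*, *Sptan1*, *Sptbn1*, *Ahnak* and *Utrn*. The folds and SE given here come from this filtered fit. Without *gdf6Y* replicate 1, the only library of the pair in this comparison, the filtered fit called 10 of 10 beside 7.85%. The fold changes grew to -0.49 ± 0.05 for *Dst* and *Syne2* and to -0.41 ± 0.05 for *Syne1*, while *Plec* stayed near at -0.31 ± 0.04. Blocking on the replicate number, which also left out EV replicate 6 as it had no match, the filtered fit called 10 of 10 beside 9.48%. Since the members were chosen on this contrast, nothing is read from these counts.

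The change of all genes fell with length in this comparison. Across the 12551 genes of known length that averaged 10 counts or more, Spearman's rho between exonic length and log2 fold change was -0.309 (genes are not independent replicates, and no test was made). Among genes other than the members that averaged 100 counts or more, the 122 genes of 21055.5 bp or more had a median log2 fold change of -0.09, and 41.8% were called lower in the unfiltered fit. The 489 genes shorter than 2000 bp had a median of 0.07, and 2.04% were called lower. The lowess trend reached -0.03 at the length of *Flna* and -0.16 at that of *Dst*. All 10 members lay below it, by 0.07 for *Flna* and *Sptbn1* up to 0.21 for *Plec*, which is not among the longest of them.

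**Figure D3:**
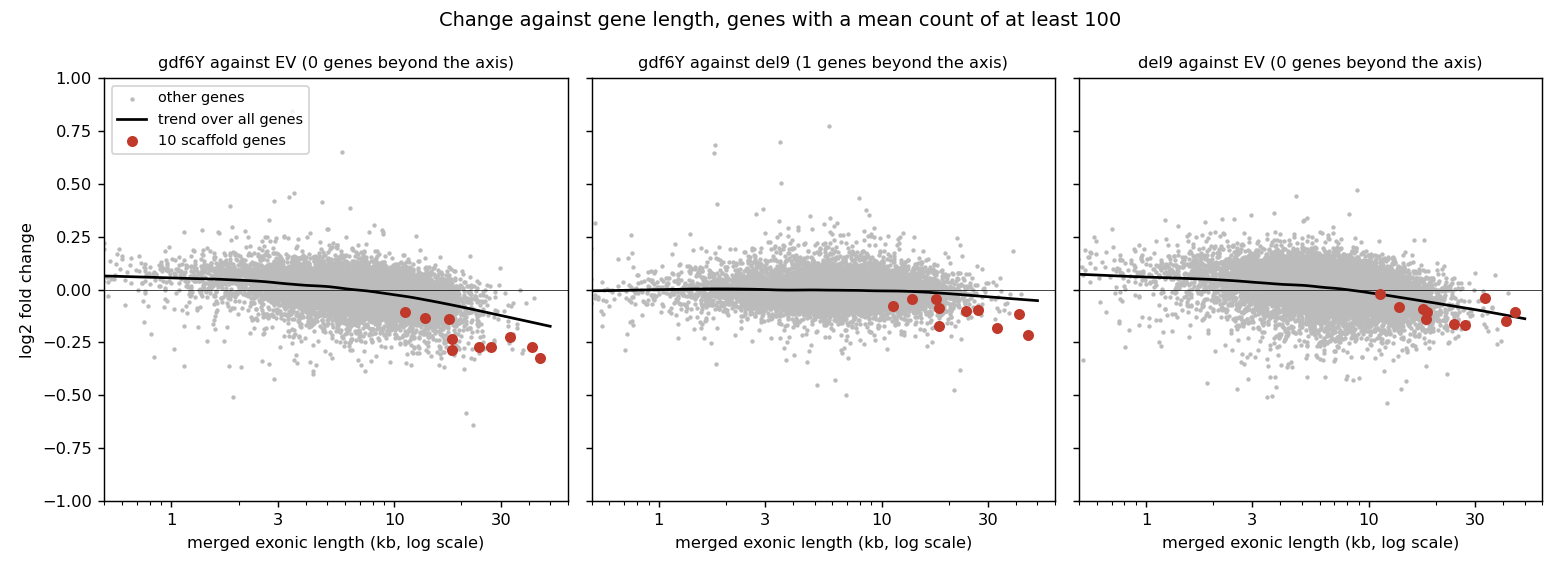
Log2 fold change against merged exonic length (kb, log axis) for genes averaging 100 counts or more in the 3 comparisons, with the lowess trend of all genes as a line and the 10 scaffold genes in red. All members lie below the trend with *gdf6Y* against EV and are closer to it with del9 against EV, where *Macf1* and *Dst* lie above it.

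A fit across all genes that took the length trend out of each sample lowered the fold changes but kept their direction. After this correction the members had log2 fold changes from -0.07 (*Flna* and *Sptbn1*) to -0.21 (*Plec*), with a median of -0.13 against 0.00 over all genes. The unfiltered fit called 9 of 10 beside 2.50%, all but *Sptbn1*, and it called 5 without EV replicate 3 and 4 without *gdf6Y* replicate 3, 4 or 5, each left out singly. In the same fit 19.7% of the 122 longest other genes and 9.74% of the 1612 others from 11208 bp up to 21055.5 bp were still called lower. Those called higher were 12.3% and 7.94% of these genes, against 0% and 0.496% before the correction. The filtered fit called 2 of 10 beside 3.12%, *Plec* at -0.21 ± 0.04 and *Utrn* at -0.16 ± 0.04, and with the replicate block as well it called 10 of 10 beside 7.40%. Without the block, *Dst* was at -0.16 ± 0.07, *Syne2* at -0.15 ± 0.11 and *Ahnak* at -0.17 ± 0.06 without a call. Without *gdf6Y* replicate 1 the filtered fit with the correction called 10 of 10 beside 5.41%, from -0.10 ± 0.03 for *Flna* to -0.34 ± 0.05 for *Syne2*.

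**Figure D4:**
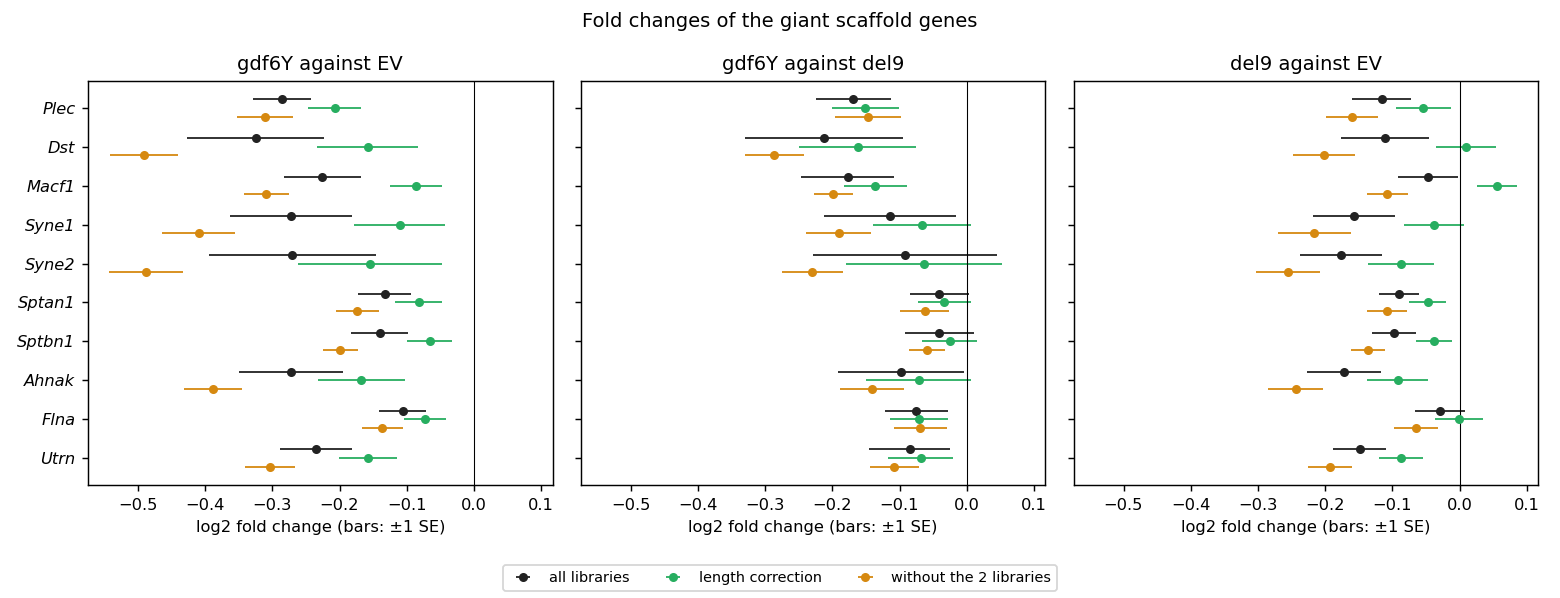
Log2 fold change with 1 SE of each scaffold gene in the filtered edgeR fit, with all libraries (black), after the length correction (green) and without *gdf6Y* replicate 1 and del9 replicate 2 (orange), each where its group is compared. With *gdf6Y* against EV the length correction moves each gene toward 0, *Dst* from -0.32 to -0.16, and leaving out *gdf6Y* replicate 1 moves it away, *Dst* to -0.49.

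The second comparison, *gdf6Y* against del9, asks what the intact ligand does beyond its mutant variant, and it shares the *gdf6Y* samples with the first. The members were chosen for lower counts in these *gdf6Y* samples, so a count of calls above the share of all genes is no evidence here either. All 10 means were lower with *gdf6Y*, with a median log2 fold change of -0.10 against 0.00 over all genes in the unfiltered fit. *Dst* had 5648, 7824, 6168, 5669 and 6150 normalised counts in del9 replicates 1 to 5, and its log2 fold change was -0.21 ± 0.12. *Macf1* had 8154, 9990, 8345, 8045 and 8322 with del9, and its log2 fold change was -0.18 ± 0.07. For both genes *gdf6Y* replicates 2 to 5 were below every del9 sample and replicate 1 was inside the del9 range.

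*Plec* had 12969, 16057, 14380, 13148 and 14961 with del9, and its log2 fold change was -0.17 ± 0.06, with 3 *gdf6Y* samples below all del9 samples. *Ahnak* had 14769, 20257, 16874, 15806 and 17173 with del9, a log2 fold change of -0.10 ± 0.09. For the other 6 genes the log2 fold changes ran from -0.04 ± 0.04 for *Sptan1* to -0.11 ± 0.10 for *Syne1*, and the *gdf6Y* and del9 samples overlapped in each. In *Syne2* and *Utrn*, as in *Dst* and *Macf1*, 4 *gdf6Y* samples lay below every del9 sample and replicate 1 did not.

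The unfiltered fit called 4 of 10 members lower beside 0.41% of 25878 genes, *Plec*, *Dst*, *Macf1* and *Ahnak*, and 3 of 10 after the length correction, also beside 0.41%. The filtered fit called 0 of 10 beside 0.15%, and 2 of 10 were below an unadjusted p of 0.05. DESeq2 also called 0, beside 33 of 25878 genes called lower. After the length correction the filtered fit again called 0, beside 0.166%. Blocking on the replicate number, the unfiltered fit called 8 of 10 beside 1.44% and the filtered fit 1 of 10, *Plec*, beside 1.20%. With the block and the length correction together these were 5 beside 1.20% and 2, *Plec* and *Macf1*, beside 1.36%. Without *gdf6Y* replicate 1 alone, the unfiltered fit called 9 of 10 beside 197 of 25500 genes, and 8 after the length correction. Without del9 replicate 1 and del9 replicate 2 the corrected fit called 5 and 1. Without the pair of libraries the filtered fit called 3 of 10, *Dst* at -0.29 ± 0.04, *Macf1* at -0.20 ± 0.03 and *Syne2* at -0.23 ± 0.05, beside 0.245%, and the same 3 genes after the length correction, beside 0.198%. The length trend itself was weak here, with a rho of -0.065 over 12530 genes and a trend of -0.01 to -0.05 at the members, and without *gdf6Y* replicate 5 the rho was 0.008.

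The third comparison, del9 against EV, sets the mutant variant against the empty vector and shares samples with each of the others. Its EV samples are those the members were chosen on, so its calls are likewise a description. The mean was lower with del9 for 10 of 10 genes, with a median log2 fold change of -0.11 against 0.01 over all genes in the unfiltered fit. *Syne2* had 1168, 1535, 1200, 1215 and 1209 with del9 (log2 fold change -0.18 ± 0.06), so 4 del9 samples lay below all EV samples. *Utrn* had 2725, 3213, 2746, 2873 and 2775 with del9 (-0.15 ± 0.04), and again 4 lay below. *Ahnak* at -0.17 ± 0.06 and *Sptbn1* at -0.10 ± 0.03 had the same split.

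*Syne1* had 1695, 2249, 1862, 1862 and 2022 with del9 and a log2 fold change of -0.16 ± 0.06. *Sptan1* had 7857, 8450, 8158, 7521 and 8251, a log2 fold change of -0.09 ± 0.03. *Sptbn1* had 10468, 11929, 10699, 10214 and 10546. In these 3 genes replicate 2 was the highest del9 sample and lay in the EV range. *Flna* had 31710, 38490, 36197, 33323 and 35634 with del9, and at -0.03 ± 0.04 its groups were not separated. *Macf1* was likewise at -0.05 ± 0.04, with replicate 2 above every EV sample. In the unfiltered fit *Plec* was at -0.11 ± 0.02 and *Dst* at -0.10 ± 0.03.

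The unfiltered fit called 8 of 10 members lower, all but *Macf1* and *Flna*, beside 4.43% of 26226 genes. It called 5 without EV replicate 3 or without del9 replicate 4, beside 898 and 1094 genes in turn. The filtered fit called 4, *Sptan1*, *Sptbn1*, *Ahnak* and *Utrn*, beside 8.29% of 12696 genes. Across 12554 genes the rho of change with length was -0.235, the trend at the members was -0.02 to -0.13, and 39.3% of the 122 longest other genes were called lower. After the length correction the unfiltered fit called 2 (*Ahnak* and *Utrn*) beside 4.23% (0 to 4 when each library was left out, lowest without del9 replicate 1 and highest without del9 replicate 2, and 1 without EV replicate 1, 3 or 5 or del9 replicate 3 or 4) and the filtered fit 0 beside 6.32%, with *Dst* at 0.01 ± 0.04 and *Macf1* at 0.06 ± 0.03. In the filtered fit with the correction, 1 of 10 was below an unadjusted p of 0.05. Without del9 replicate 2, the only library of the pair in this comparison, the filtered fit called 9 of 10 beside 8.12%. It called 3 after the length correction, *Syne2*, *Ahnak* and *Utrn*, beside 5.43%. Between *gdf6Y* and del9, the difference in change against EV is the second comparison itself.

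Among themselves the members moved together from sample to sample. After each group's mean was taken out, Pearson's r between the log2 values of 45 pairs of members had a median of 0.87 over 16 samples, lowest for *Plec* and *Utrn* at 0.54 and highest for *Dst* and *Sptbn1* at 0.99. Without *gdf6Y* replicate 1 and del9 replicate 2 the median was 0.71 over 14 samples, with a range of 0.21 to 0.93. These values share libraries, scaling and the length trend of each sample, and they are a description only. In *gdf6Y* replicates 2 to 5 the 10 genes lay on average 0.12, 0.20, 0.26 and 0.23 below the length trend of the sample. In the del9 samples other than replicate 2 they lay 0.14, 0.03, 0.10 and 0.02 below it. *gdf6Y* replicate 1 lay 0.11 and del9 replicate 2 lay 0.09 above it, and the EV samples ranged from -0.07 to 0.07 around it.

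**Figure D5:**
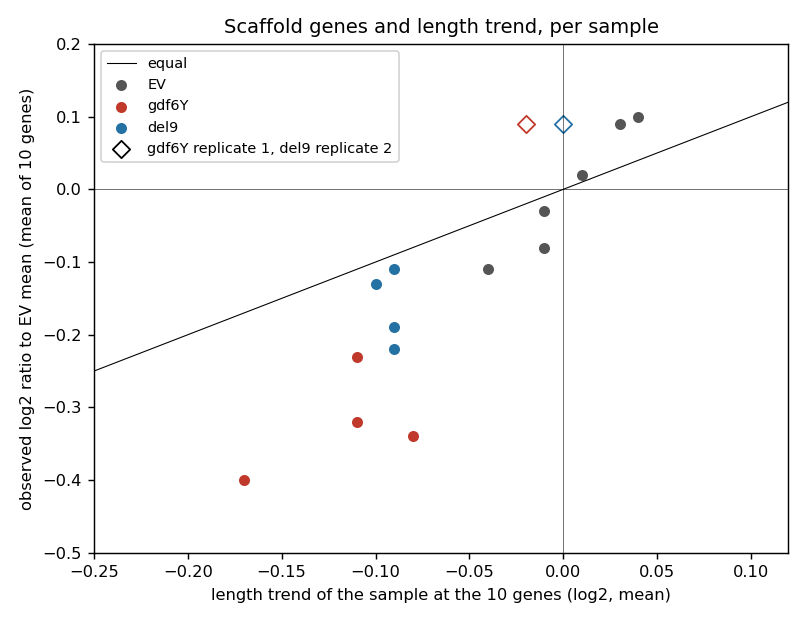
Mean log2 ratio of the 10 scaffold genes to the EV mean (vertical axis) against the mean of the sample's own length trend at these genes (horizontal axis, log2), 1 point per sample, with a line where both are equal. *gdf6Y* replicates 2 to 5 lie 0.12 to 0.26 below the line, and the open diamonds, *gdf6Y* replicate 1 and del9 replicate 2, lie above it.

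Profiles over the 16 samples were then compared with each gene centred on its mean over all of them. The group differences on which the members were chosen thus stayed in, unlike above. The 5 genes outside the members whose profile was most like the members' mean profile were also long, except *Prpf8*. *Huwe1*, a ubiquitin ligase, had a Pearson's r of 0.988, *Lrp1*, an endocytic receptor, 0.986, *Hspg2*, which encodes perlecan of the basement membrane, 0.983, *Rnf213* 0.981 and *Prpf8*, a core protein of the spliceosome, 0.979. Their exonic lengths were 24334, 20494, 15935, 16719 and 8573 bp. The 100 most alike of 10065 genes had a median exonic length of 15891.5 bp, against 6700.5 bp for all of them. The members' own r with their mean profile ran from 0.855 to 0.983.

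Relatives of the members were counted from a list of 20 paralogs, which covers plakins, nesprins, spectrins, alpha-actinins, filamins, dystrophins and *Ahnak2*. In *gdf6Y* against EV 4 of 20 were called lower and 0 higher in the unfiltered fit, beside 3.38% and 1.70% of all genes, and only 10 of them averaged 10 counts or more. Their median log2 fold change was -0.03 against -0.25 for the members. *Flnc* (filamin C) had means of 21233 with *gdf6Y* and 24240 with EV, a log2 fold change of -0.19 ± 0.05 (filtered edgeR fit, adjusted p = 0.0191). *Ahnak2* was at -0.31 ± 0.05 (adjusted p = 0.00253, edgeR). *Eppk1* (epiplakin), also called lower, averaged 8.27 with *gdf6Y* and 15.9 counts with EV. The alpha-actinins, actin crosslinkers of the spectrin family, did not pass, with *Actn4* at 0.00 ± 0.02 and *Actn1* at -0.02 ± 0.03.

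In *gdf6Y* against del9, 2 of 19 tested relatives, *Flnc* among them, were called lower and 0 higher in the unfiltered fit, beside 0.41% and 0.599% of all genes. In the filtered fit 0 relatives passed, with *Flnc* at -0.16 ± 0.07 (adjusted p = 0.456, edgeR), and 3 were lower at an unadjusted p below 0.05. With the replicate block the unfiltered fit called 5 of the 51 tested relatives and partners against 2 without it, and the count was 1 without *gdf6Y* replicate 3 or 4 or del9 replicate 2, 3 or 5. In del9 against EV, *Ahnak2* at -0.25 ± 0.04 (adjusted p = 0.00116, edgeR) passed in both fits. In the unfiltered fit 2 of 20 relatives were called lower and 0 higher, beside 4.43% and 4.82% of all genes.

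Binding partners were counted from a list of 33, of which 32 were tested, since *Sntb1* was at 0 in all 16 samples. In *gdf6Y* against EV 5 were called lower and 4 higher in the unfiltered fit, beside 3.38% and 1.70% of all genes, with a median log2 fold change of -0.03. Talin 1 (*Tln1*), the link of integrins to actin, was at -0.14 ± 0.04 (adjusted p = 0.0248, edgeR) and ankyrin 2 (*Ank2*), which anchors spectrin to the membrane, at -0.18 ± 0.04 (adjusted p = 0.0143, edgeR). The others called lower were *Sntb2*, *Vcl* and *Tln2*, and *Tln2* did not pass in the filtered fit. With the length correction 2 of the 5 kept their call in the unfiltered fit, while *Ank2* (at -0.03), *Sntb2* and *Tln2* lost theirs, and 1 partner was called lower in the filtered fit.

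Partners that rose were filament genes and members of the Ahnak complex, with exonic lengths of 4752 bp (*Vim*) to 6944 bp (*S100a10*). Annexin 2 (*Anxa2*) averaged 28013 with *gdf6Y* and 25844 with EV, a log2 fold change of 0.12 ± 0.02 (adjusted p = 0.00768, edgeR), and *S100a10* rose as well. Vimentin (*Vim*), the intermediate filament that plectin binds, rose by 0.12 ± 0.04 (adjusted p = 0.0477, edgeR) and lamin A/C (*Lmna*) by 0.11 ± 0.03 (adjusted p = 0.0364, edgeR). After the length correction *Anxa2* was at 0.10, *Vim* at 0.10 and *Lmna* at 0.11.

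In *gdf6Y* against del9 0 of 32 partners were called in either direction in the unfiltered fit, and *Epb41l3* was at 0.11 ± 0.03 (adjusted p = 0.251, edgeR). The filtered fit and DESeq2 called 0 relatives or partners, and in the filtered fit 4 of them were lower at an unadjusted p below 0.05. In del9 against EV 5 partners were called higher and 2 lower, beside 4.82% and 4.43% of all genes. *Vim* was at 0.17 ± 0.03 (adjusted p = 0.00274, edgeR), *Lmna* at 0.14 ± 0.03 (adjusted p = 0.00722, edgeR) and *Anxa2* at 0.10 ± 0.03 (adjusted p = 0.0143, edgeR). *Epb41l3*, a protein 4.1 that ties spectrin to actin, fell by 0.13 ± 0.03 (adjusted p = 0.00858, edgeR). *Dag1* (dystroglycan), at -0.06 ± 0.03 with *gdf6Y* and -0.05 ± 0.03 with del9, and *Sun2*, which binds nesprins, at -0.03 ± 0.04 and -0.06 ± 0.03, did not pass against EV in either fit.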

How the data were processed

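Poly(A) RNA of 16 TM4 samples was sequenced as strand-specific libraries from 300 ng total RNA with UMIs. The authors deposited raw counts per Ensembl gene. Per the submitters' processing notes and the study's methods they used bcl2fastq 2.20.0.422, UMI-tools for deduplication, STAR 2.7.10a on GRCm39 and featureCounts 2.0.3, with multi-mapping and multi-overlapping reads discarded. Of 56748 gene IDs 731 had no match in GENCODE vM39 and had no length, and 0 sample columns were left unused.

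Counts were tested in R 4.3.3 with edgeR 4.0.16 (TMM, quasi-likelihood test, Benjamini-Hochberg adjustment over all genes, threshold 0.05), on every gene with 1 count or more in a library compared. Each comparison used only its own samples. A filterByExpr filter, DESeq2 1.42.0, a replicate block, a length correction and leaving out samples were alternatives, and the scripts were tested on simulated data. The length correction added to each sample's offset a lowess (span 0.3) of log2(count + 0.5) relative to the mean on log2 exonic length. The SE, adjusted p-values and fold changes printed come from the filterByExpr fit unless named otherwise. The SE was derived from the test, as the absolute log2 fold change over the square root of the quasi-likelihood F.

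Members and lists were chosen with earlier results of these data known. Named were all 10 members, per list and comparison the 3 called relatives or partners with the smallest adjusted p and the 2 most abundant called in none, and the 5 most alike profiles. *Eppk1*, *S100a10*, *Sntb2*, *Vcl* and *Tln2* were named to complete counts after their values were seen. The values of 1 relative that the rule would name are not reported here.

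The labels give the groups common replicate numbers. Deviations of same-numbered samples from their group means were correlated over 10075 genes. The r was 0.109 to 0.417 for *gdf6Y* and EV, 0.22 to 0.381 for *gdf6Y* and del9 and 0.053 to 0.299 for del9 and EV. For each of these pairs of groups, the best match of some replicates bore another number. No shared batch is stated, so the main fits used no block and the replicate block was an alternative in every comparison. The block kept only replicate numbers present in both groups, so every blocked fit against EV left out EV replicate 6.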

Additional observations from a re-analysis of the deposited data

Results flagged for a closer look

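In the 30 groups of member counts looked at (10 genes in 3 groups), 9 had a sample far from the others, where about 1 in 20 groups, 1.5 here, would by chance. All 9 were *gdf6Y* replicate 1 or del9 replicate 2, and all were high. The ratio given is the gap to the nearest other sample over the whole range of the group. In *gdf6Y* replicate 1 it was 0.765 for *Dst* (7779 normalised counts, others 4257 to 5084), 0.725 for *Macf1*, 0.757 for *Syne1*, 0.796 for *Syne2* and 0.727 for *Sptbn1*. In del9 replicate 2 it was 0.761 for *Dst* (7824, others 5648 to 6168), 0.845 for *Macf1*, 0.873 for *Syne2* and 0.717 for *Sptbn1*. The genes of a sample are not independent, so these are a pair of libraries rather than 9 separate events, and the cause was not tested.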

How the results depend on the processing

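Counts here are members called lower unless relatives and partners are named. For length-corrected fits with a single library left out, the share of all genes is not given. In *gdf6Y* against EV the count of 10 was 6 with DESeq2, beside 755 of 26316 genes called lower. It was 6 with filterByExpr and 2 with filterByExpr and the length correction. The count stayed at 10 without each library in turn, beside 559 to 1033 genes called lower. After the length correction it was 2 with filterByExpr in place of 9, and 4 (without *gdf6Y* replicate 3, 4 or 5) to 10 (without *gdf6Y* replicate 1) over the libraries left out. Relatives and partners fell from 13 to 8 called with filterByExpr and the length correction.

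In *gdf6Y* against del9 the count of 4 was 0 with DESeq2, 0 with filterByExpr, 0 with filterByExpr and the length correction, 2 with the edgeR 4 dispersion estimate, and 3 to 9 over the libraries left out. All genes called lower numbered 106 in the unfiltered fit. They were 33 with DESeq2, 59 with the edgeR 4 estimate and 66 to 198 over the libraries left out. With the replicate block the member count was 8, or 1 with filterByExpr and 2 with filterByExpr and the length correction. After the length correction the count of 3 was 5 with the block, 0 with filterByExpr and 1 to 8 over the libraries left out. Relatives and partners numbered 2 called, 0 with DESeq2, 0 with filterByExpr (also with the length correction, and also without the 2 libraries that stood apart), 1 with the edgeR 4 estimate, 5 with the block, 4 with the block and length correction, 1 with the block and filterByExpr with or without the length correction, and 1 to 3 over the libraries left out.

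In del9 against EV the count of 8 was 3 with DESeq2, 4 with filterByExpr, 2 with the length correction, 0 with that and filterByExpr, 3 with both and without del9 replicate 2, and 5 to 9 over the libraries left out. All genes called lower numbered 1162 in the unfiltered fit, 928 with DESeq2 and 826 to 1342 over the libraries left out. The replicate block is an alternative here as well, since no shared batch is stated for the replicate numbers. It also left out EV replicate 6. With the block the member count was 9, beside 1459 of 25989 genes called lower. It was 5 with the block and length correction and 2 with filterByExpr as well. After the length correction the count of 2 was 5 with the block, 0 with filterByExpr and 0 to 4 over the libraries left out. Relatives and partners went from 9 to 14 called with the block and length correction.

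The direction of *Dst* in del9 against EV reversed to 0.01 with the length correction, also with filterByExpr. *Macf1* reversed to 0.06 with the length correction (0.06 with filterByExpr, 0.04 with the block, 0.04 with the block and filterByExpr, 0.02 with filterByExpr and without del9 replicate 2). *Flna*, -0.06 to 0.01 over the libraries left out, reversed without del9 replicate 1. For genes averaging 100 counts or more, the rho of the length trend in gdf6Y against EV moved from -0.309 to -0.400 and that of the length trend in del9 against EV from -0.235 to -0.335. In *gdf6Y* against del9 it ran from -0.106 to 0.008 over the libraries left out, reversed without *gdf6Y* replicate 5. For the levels of the members the median was 27.9 CPM per kb with the longest transcript in place of 18.1. The cause of these changes was not tested. Depth was not limiting for the members, of which the lowest value was 934 normalised counts (*Syne2*), and the length measure rests on an annotation of all exons, not on the isoforms TM4 cells use.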
